A study of Mus musculus with 18 samples.

Results

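Isolated control-only H3K4me3 peaks are stretches of the mouse autosomes that were called as marked in control pancreatic islets and had no called peak nearby in Men1 knockout islets. A control peak was counted as isolated control-only when no knockout peak lay within 5000 bp of it. On chromosomes 1 to 19 there were 2099 such peaks among 21215 control peaks, or 9.89% (exact 95% interval 9.50 to 10.3). The members were chosen by the positions of the control and knockout peaks, so their absence from the knockout list is the rule and not a finding. The same rule turned around gave 1406 knockout peaks with no control peak within 5000 bp, 6.78% of 20752.

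The data are ChIP-seq peak lists, in which chromatin bearing a histone mark is enriched with an antibody and its DNA is sequenced and summarised as intervals. The control islets came from RIP-Cre mice, in which the rat insulin promoter drives Cre recombinase in beta cells. The knockout islets came from mice labelled as Men1 islet-specific knockout. Both were harvested at 2 months, both are labelled pancreatic islets, and both groups were kept on mixed strains, named as 129s6 with FVB/N with C57BL/6. The labels do not say which driver deleted Men1, nor how many animals went into a library. Islets hold several endocrine cell types as well as vessels and other cells. In such bulk tissue a mark on fewer cells and a weaker mark per cell cannot be told apart. The labelled tissue was not checked against marker genes, because no gene annotation of mm9 was used here. Each genotype had 1 library, so the differences below lack a replicate check, and they are given as values with intervals over peaks and without tests.

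H3K4me3 is trimethylation of lysine 4 on histone H3. It is placed by SET1 and MLL enzyme complexes and is strongest at the start sites of active or poised genes, above all at CpG-rich promoters. Weaker and narrower H3K4me3 is also seen at some enhancers and at start sites of little-used transcripts. Menin, the product of Men1, is a subunit of the MLL1 and MLL2 complexes, and its loss in insulin-producing beta cells leads to islet tumours. The genes at the peaks below are not named, since the positions are those of mm9. All positions are counted from 1.

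Most isolated control-only peaks were weak. The score is the authors' value for each peak, higher for stronger evidence, and it served here to rank and group peaks of the control list. The median score of the 2099 peaks was 98.8 (95% interval 95.9 to 102), with a range from 60.01 to 2672. The lowest score in the whole control list was the same, so the members reached down to the deposited minimum. Shared control peaks, which overlap a knockout peak by at least 1 bp, numbered 18517 and had a median score of 2850. Of the isolated control-only peaks, 1063 (50.6%) scored under 100 and 1580 (75.3%) under 150. Scores of at least 300 were held by 133 of them (6.34%) and scores of at least 600 by 23. A single member reached the median of all autosomal control peaks, which was 1999.

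The share of control peaks that were isolated control-only fell with every step up in score. In the lowest band, with scores under 80, 702 of 1364 control peaks were isolated control-only (51.5%, exact 95% interval 48.8 to 54.1). The share was 45.4% for scores of 80 to under 100, 35.6% for 100 to under 150 and 24.1% for 150 to under 200. It was 14.8% for 200 to under 300, 5.99% for 300 to under 600 and 1.34% for 600 to under 1200. From 1200 to under 3100 there was 1 member among 3229 control peaks, and at 3100 or more there were 0 among 8860, which allows a share of up to 0.0416% by the exact interval. In the lowest band, 452 control peaks (33.1%) overlapped a knockout peak and another 210 (15.4%) had a knockout peak within 5000 bp without overlap. How often a peak near the calling threshold is missed in a second library of 1 genotype was not tested.

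**Figure D1:**
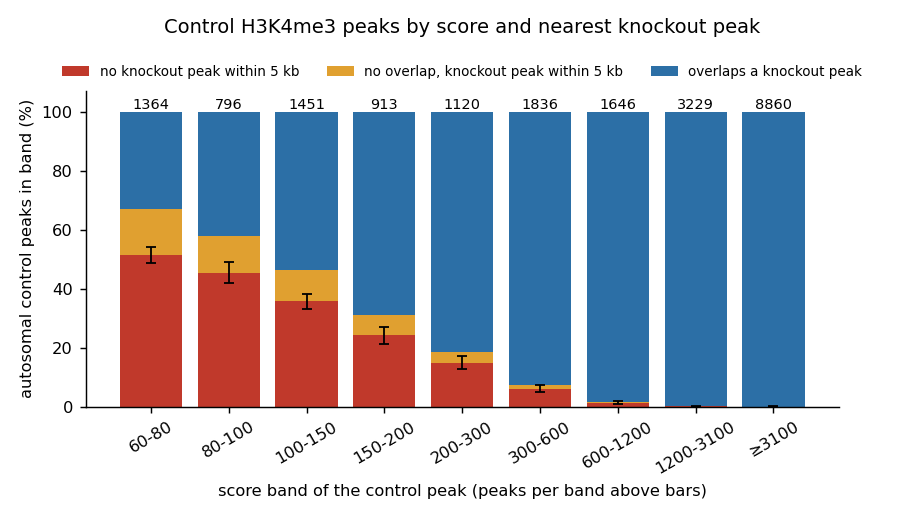
Stacked bars give the percentage of autosomal control peaks in each score band that had no knockout peak within 5 kb, had one within 5 kb without overlap, or overlapped a knockout peak. Error bars are exact 95% binomial intervals of the lowest segment, and the number of control peaks stands above each bar. The lowest segment shrinks from 51.5% under a score of 80 to 1.34% between 600 and 1200.

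The peaks were narrow, and close in width to shared peaks of matched score. Their median width was 805 bp (95% interval 792 to 816), the central range from the lower to the upper quartile ran from 667 to 969 bp, and the extremes were 370 and 4992 bp. Shared control peaks as a whole had a median of 1938 bp. To compare like with like, shared peaks were weighted so that each of 9 score bands held the same share of them as of the isolated control-only peaks. The shared peaks of matched score then had a median width of 814 bp and a central range of 679 to 981 bp. A width of 1000 bp or more was found for 21.4% of isolated control-only peaks and for 22.7% of shared peaks at matched score. Together the 2099 peaks covered 1.80 Mb, which is 4.39% of the 41.1 Mb marked on the control autosomes. Their share of marked length was thus smaller than their share of peaks.

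Within single score bands under 600 the widths lay close together, with isolated control-only peaks slightly narrower under a score of 200 and slightly wider from 200 up. Under a score of 80, the median was 648.5 bp (interval 640 to 660) for isolated control-only peaks and 674 bp (interval 658 to 686) for shared ones. For scores of 150 to under 200 the medians were 970.5 bp (interval 950 to 988) and 1001.5 bp (interval 989 to 1017). For scores of 200 to under 300 they were 1138.5 bp (interval 1094 to 1189) and 1095 bp (interval 1080 to 1114), and for 300 to under 600 they were 1284 and 1233 bp. Of the bands under 600, that of 150 to under 200 was the only one in which the intervals did not overlap. In each band under 600 the isolated control-only peaks also had the lower median score, with 168 against 173 for 150 to under 200. With 26 narrower score bands, the median widths were 805 bp for isolated control-only peaks and 807 bp for shared peaks of matched score. Between 600 and under 1200, the 22 isolated control-only peaks were wider, with a median of 1798 bp (interval 1509 to 2336) against 1458 bp (interval 1441 to 1476) for 1621 shared peaks. Their median score was the lower one, 716 against 862 for the shared peaks of the band. Width and score come from the same reads and rose together, with a Spearman rho across peaks of 0.77 for the 2099 isolated control-only peaks and 0.74 for 6430 shared peaks scoring under 1200.

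**Figure D2:**
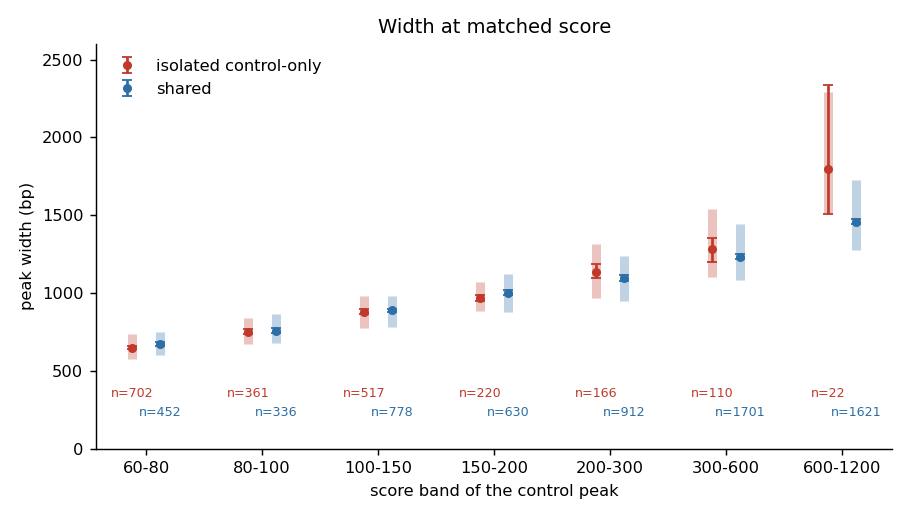
Points are median peak widths in bp per score band, with 95% order-statistic intervals as thin bars and the range from the lower to the upper quartile as thick bars, for isolated control-only and shared control peaks. The medians run together up to a score of 600, and in the band from 600 to 1200 they stand at 1798 and 1458 bp.

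The 10 highest-scoring isolated control-only peaks spanned scores from 829 to 2672. The highest, on chromosome 17 (36304242 to 36305652), was 1411 bp wide with a score of 2672, had 27 shared control peaks within 500 kb, and lay 5.51 kb from the nearest knockout peak, close to the limit of the rule. The next, also on chromosome 17 (44271214 to 44273616), was 2403 bp wide, scored 1171 and stood 27.7 kb from a knockout peak. On chromosome 7 (30927910 to 30929491), a peak of 1582 bp had a score of 1161 and lay in a crowded stretch, with 40 shared peaks within 500 kb. The surroundings of the 10 therefore differed widely, from 2 to 40 shared peaks within that distance.

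The widest isolated control-only peak was on chromosome 1 (160884277 to 160889268). It measured 4992 bp with a score of 1135, stood 272 kb from the nearest control or knockout peak, and had 2 shared peaks within 500 kb. The second widest, on chromosome 16 (45452612 to 45455207), measured 2596 bp and scored 626, so the first stood far beyond the rest in width. The third, on chromosome 13 (89723329 to 89725922), measured 2594 bp, scored 972 and also had 2 shared peaks within 500 kb. The remaining widest peaks were on chromosome 18 (84461518 to 84464078, 2561 bp, score 537) and on chromosome 4 (138946626 to 138949051, 2426 bp, score 708). Of all members, 75 (3.57%) were 1500 bp or wider and 18 were 2000 bp or wider.

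Among the other high-scoring members, that of 1793 bp on chromosome 17 (6474942 to 6476734) had a score of 1113 and stood 157.5 kb from any knockout peak. On chromosome 2 (71930117 to 71932277), a peak of 2161 bp had a score of 864 at 107.7 kb from a knockout peak. On chromosome 1 (170638274 to 170640314), the width was 2041 bp and the score 1016. Its nearest control peak was 171 kb away but a knockout peak lay at 31.0 kb, so the knockout list marked another site in the same interval. On chromosome 6 (3460417 to 3462218), a peak of 1802 bp and score 829 had a knockout peak at 11.2 kb. Isolation from the knockout list by over 100 kb was found for 322 members (15.3%).

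The major histocompatibility complex, which encodes antigen-presenting molecules and differs between mouse strains, lies on chromosome 17. In a round window chosen after the values were seen (34000001 to 37000000), 7 of 108 control peaks were isolated control-only (6.48%, exact 95% interval 2.65 to 12.9), a share near that of all autosomes (9.89%). Of these, 2 were among the 10 highest-scoring members, with 2672 for the peak named above and 1060 for a 2082 bp peak at 36178720 to 36180801. The other 5 scored between 73.5 and 359. The window held 80 control peaks with a score of at least 600, of which 2 were isolated control-only. Over all autosomes 23 members had such a score, with the shares per score band given above. The animals were not of a single inbred strain, and what strain differences contributed was not tested.

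The limit of 5000 bp cut through ordinary weak peaks. Just inside it were peaks on chromosome 8 (124247613 to 124248160, score 120, 5020 bp from a knockout peak), on chromosome 8 (86880565 to 86881451, score 125, 5057 bp) and on chromosome 7 (51776903 to 51777873, score 102, 5067 bp). Just outside were peaks on chromosome 15 (79226367 to 79227173, score 88.6, 4967 bp), chromosome 11 (118895375 to 118896253, score 78.5, 4962 bp) and chromosome 8 (73124866 to 73125736, score 143, 4956 bp). In all, 599 autosomal control peaks overlapped no knockout peak but had one within 5000 bp. Their median score of 97.0 and median width of 804 bp were close to those of the isolated peaks.

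The distance to the nearest other control peak depended on which shared peaks it was set beside. Isolated control-only peaks had another control peak at a median of 25.01 kb (interval 23.4 to 26.5), with a central range of 11.4 to 59.0 kb. Shared peaks of matched score had one at 17.2 kb. Most control peaks have a knockout counterpart, so a rule that keeps knockout peaks 5 kb away also keeps most control peaks away. When the shared peaks were held to the same condition, with no knockout peak within 5000 bp other than those they overlapped, 15079 remained, and their median at matched score was 29.6 kb. Against these the isolated control-only peaks stood nearer to another control peak, not farther.

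Over 500 kb, a smaller share of the isolated control-only peaks than of the shared peaks stood alone. Of all members, 12 (0.572%, interval 0.296 to 0.997) were over 500 kb from any other control peak, against 1.82% of shared peaks at matched score and 2.41% of those under the same 5 kb condition. Over 100 kb, the shares were 13.0%, 14.0% and 17.8%, so members were close to matched shared peaks without the condition. At short range, 138 members (6.57%) had another control peak within 5 kb. For 122 of these the nearest peak was itself isolated control-only, for 5 it was a control peak near but not overlapping a knockout peak, and for 11 it was a shared peak. Such a shared peak can lie within 5 kb while its knockout counterpart, with a different border, does not.

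**Figure D3:**
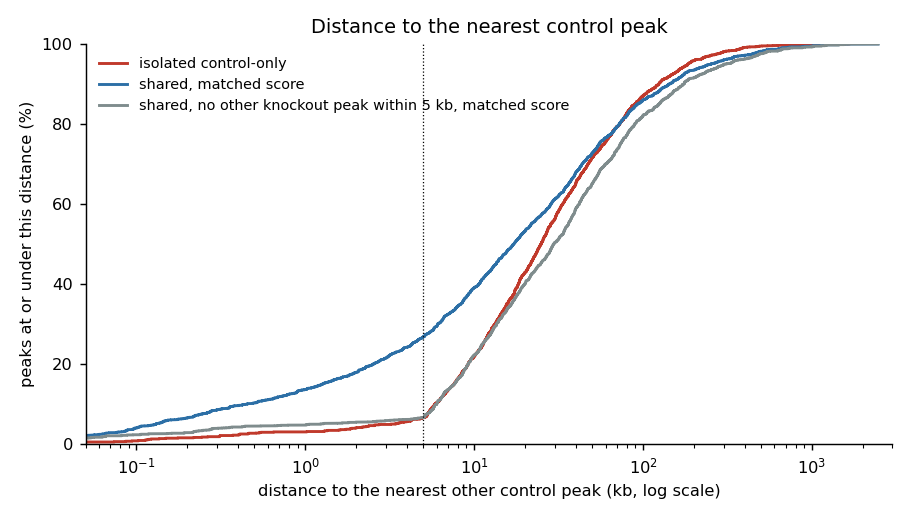
Curves give the percentage of peaks whose nearest other control peak lies at or under the distance on the horizontal log axis, for isolated control-only peaks and for the shared peaks weighted to the same scores, before and after the same 5 kb condition (dotted line). The isolated control-only curve crosses 50% at 25.01 kb, between 17.2 and 29.6 kb for the shared curves.

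The 5 members farthest from any control peak were mostly weak. They lay on chromosome 14 (4437284 to 4437933), chromosome 15 (15318535 to 15319259), chromosome 12 (116054486 to 116055193), chromosome 14 (44502786 to 44503791) and chromosome 10 (15479480 to 15480428). Their distances to a control peak were 1655, 1339, 1230, 1104 and 1054 kb in that order. Of the 5, only the second chromosome 14 peak scored above 100, with 557 over 1006 bp, and the others scored between 69.4 and 94.2. A knockout peak lay nearer than any control peak in each of the 5, at 223, 298, 800, 975 and 999 kb. These empty stretches thus held a called peak of the knockout list at another place. Picking members by their distance to a control peak favours this order. Over all members, the median distance was 25.01 kb to a control peak and 29.6 kb to a knockout peak.

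Dense and sparse stretches were defined by the number of shared control peaks within 500 kb to each side. Up to 7 counted as sparse and 22 or more as dense, the lower and upper quartiles over all autosomal control peaks. Of the isolated control-only peaks, 733 (34.9%, interval 32.9 to 37.0) lay in sparse and 283 (13.5%, interval 12.0 to 15.0) in dense stretches. Shared peaks of matched score were in sparse stretches in 33.0% and in dense ones in 21.1% of cases. Under the same 5 kb condition these became 37.6% and 15.3%. Shared peaks held to the distance condition thus lay closer to the isolated control-only peaks in their dense share than shared peaks in general. The median number of shared peaks within 500 kb was 10 for isolated control-only peaks, 10 for shared peaks at matched score and 9 with the condition.

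In dense stretches, a larger share of the weak control peaks without overlap fell into the class near a knockout peak. Among control peaks scoring under 150, 47.9% in sparse stretches (567 of 1183) and 29.97% in dense stretches (208 of 694) were isolated control-only. The share without overlap but with a knockout peak within 5 kb went the other way, from 6.42% to 24.2%. Density counts shared peaks, each of which overlaps a knockout peak, so dense stretches hold more knockout peaks by definition. Both shifts are favoured by this, since a peak without overlap then more often has a knockout peak within 5 kb. The share that overlapped a knockout peak was 45.6% in sparse stretches (interval 42.8 to 48.5), 40.8% in the middle class (interval 38.5 to 43.2) and 45.8% in dense stretches (interval 42.1 to 49.6). Sparse and dense surroundings therefore had nearly the same share of weak control peaks with a partner.

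Between neighbouring shared peaks the rate of isolated control-only peaks was highest in short gaps. The 18498 gaps between consecutive shared control peaks had a median length of 43.4 kb, and 1717 of them (9.28%) held a member. Leaving out 5 kb at each end, gaps of 20 to under 50 kb held 2.47 members per Mb (252 members), and gaps of 100 to under 200 kb held 1.65 per Mb (538 members). Gaps of 500 to under 1000 kb held 0.587 per Mb (224 members), and gaps of 1000 kb or more held 0.184 per Mb (125 members). At least 1 member was held by 5.26% of gaps of 20 to under 50 kb and by 28.0% of those of 500 to under 1000 kb. Of the gaps of 1000 kb or more, 24.5% held one. Such rates were not computed for other classes of peak, so they cannot show a trait particular to the members.

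**Figure D4:**
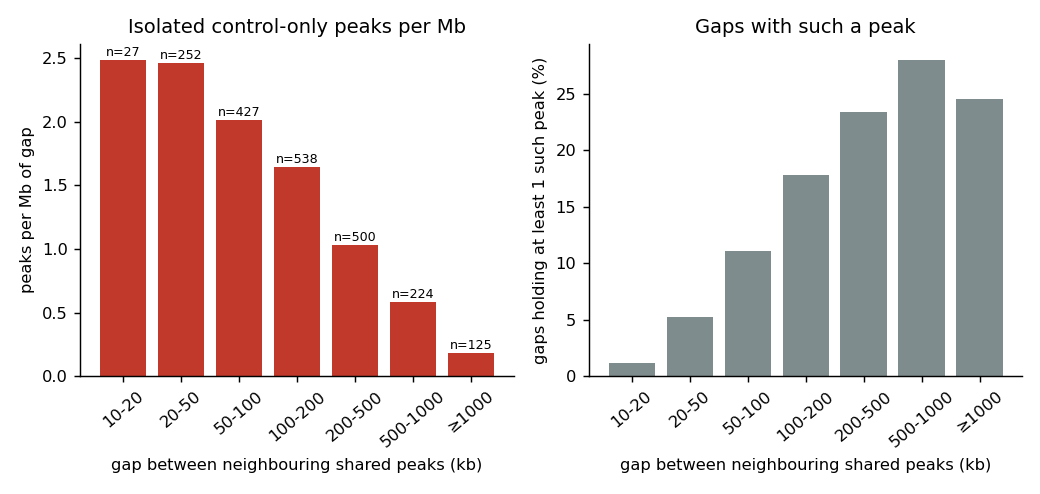
The left bars give isolated control-only peaks per Mb of gap between neighbouring shared control peaks, with 5 kb left out at each end and the number of peaks above each bar. The right bars give the percentage of gaps with at least 1 such peak. The rate falls from 2.47 per Mb in gaps of 20 to 50 kb to 0.184 per Mb in gaps of 1000 kb or more.

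In the longest gaps the members lay towards the marked ends. Of 1387 members in gaps of 100 kb or more, 760 (54.8%, interval 52.1 to 57.4) lay nearer to a flanking shared peak than 25% of the gap's length. The share was 50.4% in gaps of 100 to under 200 kb (538 members) and 51.4% in gaps of 200 to under 500 kb (500 members). In gaps of 500 to under 1000 kb it was 62.5% (224 members), and in those of 1000 kb or more 73.6% (125 members). The rule keeps members about 5 kb from the gap ends, so an even placement over the rest would give less than 50%. That share was not computed here. Strong shared peaks, those with a score of 1200 or more, lay at a median of 44.9 kb from the isolated control-only peaks (interval 41.3 to 48.4). For shared peaks of matched score that distance was 45.4 kb, and with the 5 kb condition 61.5 kb. A distance of over 500 kb from a strong shared peak was found for 44 members (2.10%), against 5.18% and 6.04% in the matched classes. Few isolated control-only peaks were thus remote from strongly marked places.

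Isolated control-only peaks tended to lie next to one another, beyond the level seen around shared peaks of matched score. The nearest control peak was another isolated control-only peak for 439 of the 2099 (20.9%, interval 19.2 to 22.7), against 8.06% for shared peaks at matched score and 10.3% with the 5 kb condition. Pairs within 5 kb are favoured by the rule, so members with a nearer neighbour were left out. Of the remaining 1961, 317 (16.2%, interval 14.6 to 17.9) had a member as nearest control peak, against 10.9% and 11.0%. With neighbours over 50 kb away the values were 18.6% (interval 15.6 to 22.0), 12.7% and 12.5%. These intervals count both peaks of a mutual pair and are too narrow to that extent.

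The comparison was also limited to weak neighbours, whose scores were not matched any further. When the nearest control peak scored under 150 and lay over 5 kb away, it was isolated control-only in 250 of 413 cases beside a member (60.5%, interval 55.6 to 65.3). Beside shared peaks of matched score it was so in 43.0%, and in 42.9% with the 5 kb condition. Weak neighbours of this kind were met by 19.7% of members and by 14.4% and 18.5% of the matched classes. With control peaks under a score of 100 removed, the share of members beyond 5 kb whose nearest peak was a member was 8.68% (interval 7.01 to 10.6), against 6.41% and 6.495%. The difference was smaller there but in the same direction.

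**Figure D5:**
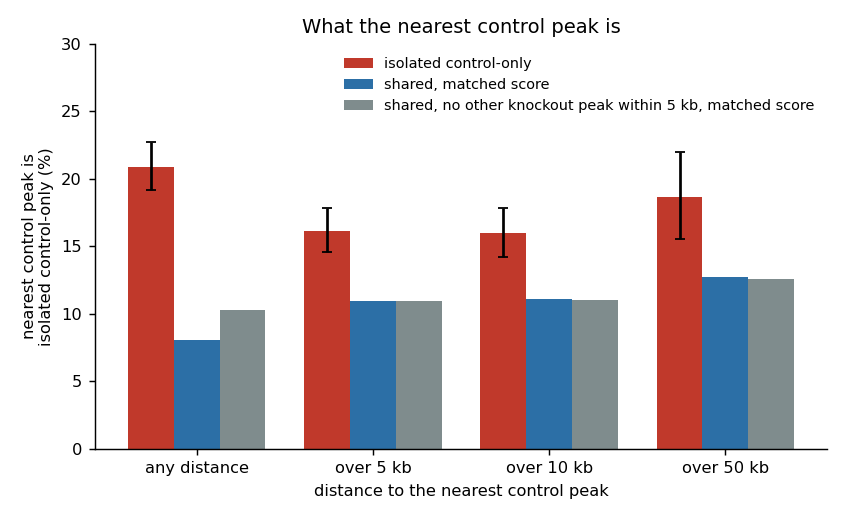
Bars give the percentage of peaks whose nearest control peak is isolated control-only, over all peaks and over those whose nearest control peak is more than 5, 10 or 50 kb away. Error bars are exact 95% intervals, drawn for the isolated control-only peaks alone. Their bar stands at 16.2% beyond 5 kb, above 10.9% and 11.0% for the shared classes.

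Clusters were small. Chains of members with at most 50 kb between neighbours numbered 196 and took in 424 members (20.2%, interval 18.5 to 22.0). Of these chains, 168 were pairs, 24 held 3 members and 4 held 4. A run was counted where members followed one another along the chromosome with no other control peak between them. There were 300 runs of 2 or more, with 678 members (32.3%). Pairs made up 241 of the runs, 45 held 3 members, 11 held 4, 2 held 5 and 1 held 7. Close peaks were counted separately, and 63 members had another control peak under 1 kb away. Chains and runs were not counted with close peaks joined, nor for shared peaks of matched score.

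The 5 chains with the most members follow, with ties ordered by summed width. The first lay on chromosome 17 (6429108 to 6492122). Its 4 peaks had scores of 318, 1113, 80.5 and 61.6 along the chromosome and widths from 391 to 1793 bp, with 0 knockout peaks in the span of 63.0 kb. On chromosome 15 (97134394 to 97211168) the 4 peaks scored 61.2, 80.5, 190 and 195, again with 0 knockout peaks in 76.8 kb. A chain of 4 on chromosome 18 (25696652 to 25749429) scored between 64.4 and 142. The chain of 4 on chromosome 10 (119041969 to 119084092) enclosed 1 shared peak and 2 knockout peaks. On chromosome 2 (71891904 to 71932277) a chain of 3 held peaks of 617, 1636 and 2161 bp with scores of 78.2, 211 and 864.

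The longest run lay on chromosome 14 (119750436 to 120548450), where 7 isolated control-only peaks followed one another over 798 kb with 0 knockout peaks in between. Their scores were 67.9, 203, 81.4, 64.1, 336, 67.1 and 141, and their widths ranged from 597 to 1586 bp. A run of 5 on chromosome 16 (72719401 to 72925310) had scores from 78.8 to 555 over 206 kb. Another run of 5, on chromosome 10 (7757182 to 8220217), was uniformly weak, with scores from 79.2 to 122 and widths from 763 to 901 bp. The run of 4 on chromosome 4 (138946626 to 139112517) began with the 2426 bp peak named above, and that on chromosome 12 (45537935 to 46168810) spanned 631 kb with scores up to 368. Each of these 5 runs held 0 knockout peaks. This is largely fixed by the definition, since a run holds no control peak other than members. Only knockout peaks with no control peak within 5000 bp, 6.78% of the autosomal ones, could fall inside.

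The share of control peaks that were isolated control-only varied over the chromosomes between chromosome 7 with 7.23% (interval 5.98 to 8.65) and chromosome 1 with 12.8% (interval 11.0 to 14.8). The interval left out the autosomal share of 9.89% on 7 of 19 chromosomes. Among control peaks scoring under 150, of which 43.8% were isolated control-only, chromosome 11 had the lowest share with 37.1% (interval 31.5 to 43.1) and chromosome 1 the highest with 52.5% (interval 46.0 to 59.0). There 3 chromosomes had an interval that left out the common share. On the X chromosome, which is outside the rule, 37 of 636 control peaks had no knockout peak within 5000 bp, and on contigs not placed in the chromosomes 14 of 51.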

How the data were processed

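H3K4me3 peak lists of 2-month control and Men1 knockout islets (2 of 18 samples, 1 library each) were used. Bowtie, MACS 1.4.2 and mm9 appear in the submitters' processing notes, with no roles. Input use, filters and pooling of animals were not given in the sources used here. The deposited score per peak, of unstated scale, is the authors' value. Lists hold no counts, so depth is unknown. The lists were matched to samples by genotype, age and mark in their names, which also carry an unexplained word, "2nd".

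Distance is the number of bases between peaks. Shared means an overlap of at least 1 bp. Scores were matched by weighting all shared peaks to the members' shares of 9 score bands (bounds 80, 100, 150, 200, 300, 600, 1200 and 3100). Weighted values are printed without an interval. For weighted median widths and distances and for weighted sparse and dense shares, approximate 95% intervals that allow for the weights served to judge the recomputed values. Other medians have 95% order-statistic intervals and other shares 95% Clopper-Pearson intervals. All these intervals treat peaks as independent and do not cover variation between libraries or animals. Python 3.11.15, numpy 2.4.6, pandas 2.3.3 and scipy 1.17.1 were used. bedtools 2.31.1 gave the same 2099 members, and the functions were tested on simulated lists.

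Members, lists and comparisons were chosen with earlier results of these data known. Regions were named by rule: the 10 highest scores, the 5 widest, the 5 farthest from a control peak, the 5 largest chains and runs, and 3 on each side of the 5000 bp limit. Alternatives covered the limit, score minimums, score bands, joining of peaks, the shared comparison, density windows and cluster gaps. No mm9 sequence or gene annotation was used here, so no sequence is printed.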

Additional observations from a re-analysis of the deposited data

How the results depend on the processing

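Of 71 recomputed values, 40 stayed inside the 95% interval of the reported value (or within 1.5 times for a count) and 31 did not. Some of the 40 could not change, because settings that alter only the shared peaks leave the members' values as they were. This applies to members' width, distance, and sparse and dense shares under such settings. The median width stayed close to its value under each alternative run for it, for members and for shared peaks of matched score. The share of control peaks that were isolated control-only was 11.8% and 11.2% with limits of 1000 and 2000 bp, 8.42% at 10000 bp and 6.26% (1328 peaks) at 20000 bp. It was 5.44% (1036 peaks) for control scores of at least 100, 0.854% (133 peaks) for at least 300, and 14.2% when knockout peaks under 100 were removed. Shared peaks under the 5 kb condition gave a distance of 29.6 kb, on the other side of the members' 25.01 kb, with 37.6% sparse and 15.3% dense. To the nearest shared peak, the distances were 31.5 kb for members and 20.1 kb for shared peaks of matched score. Under the 5 kb condition the latter became 34.4 kb, again on the other side of the members' value. With 250 kb to each side, 44.6% of members and 39.7% of matched shared peaks were sparse, and with density from all control peaks 36.0% of the latter. Chains numbered 123 (12.3% of members) at a gap of 20 kb and 308 (32.8%) at 100 kb, and their share was 22.6% and 17.9% with limits of 2000 and 10000 bp. For control scores of at least 100, 190 members (18.3%) were in runs and 10.8% had a member as nearest peak. The latter was 18.5% with peaks within 1000 bp joined, and 16.2%, 16.0% and 18.6% for neighbours over 5000, 10000 and 50000 bp away. The alternatives on nearest members were added after seeing the data. Limits, score minimums and gaps move these counts by construction. For the other moves the cause was not tested. No paired analysis was possible because the labels give 1 library per group, which also leaves no library to omit. The lists hold no depth, so absent peaks may have been undetectable.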

Other observations

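The isolated control-only peaks were also counted in windows of 1 Mb, and the windows given here were picked with their counts in view. Of 2130 autosomal windows with a control peak, 984 held 0 isolated control-only peaks, 599 held 1 and 4 held 8, the highest number. On chromosome 10 (69000001 to 70000000) and on chromosome 6 (136000001 to 137000000) those 8 stood among 17 control peaks each. On chromosome 18 (38000001 to 39000000) they stood among 32, and on chromosome 11 (101000001 to 102000000) among 49. On chromosome 17 (63000001 to 64000000), 7 of 11 control peaks were isolated control-only, a larger part than in the windows with 8.

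The knockout peaks with no control peak within 5000 bp had a median score of 85.7 in their own list and a median width of 666 bp. An isolated knockout-only peak lay within 50 kb of 146 isolated control-only peaks (6.96%) and within 500 kb of 1014 (48.3%). The same shares were not computed for shared control peaks, so these values cannot show whether the classes lie near one another.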
